A study of Mus musculus with 76 samples.

Results

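Single-embryo polyA RNA-seq of wild-type (WT) mice was compared between 14 blastocysts and 11 2-cell embryos, which are 25 of the 76 libraries of a study of maternal loss of Ezhip, an inhibitor of Polycomb repressive complex 2 that the count tables list as AU022751. All libraries labelled WT at these stages were taken, and the counts of the stages, deposited in separate tables, were joined by gene symbol. The blastocysts came from 6 females and 8 males, and the 2-cell embryos from 5 females and 6 males. The 14 matKO blastocysts and 12 matKO 2-cell embryos, whose mothers lacked Ezhip, entered 1 comparison only. The sources used here give neither strain, hours of development, litter nor culture conditions, so the p-values measure the spread between single-embryo libraries, and whether these are independent litters is unknown. The library identifiers of all 2-cell embryos and of 4 blastocysts (female 5 and males 4, 5 and 6) begin with D707T, and those of the other 10 blastocysts with D405T. The labels do not say what the prefix marks, so the stage was also tested with the 4 D707T blastocysts alone.

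At the 2-cell stage the mouse embryo activates its own genome while the mRNA stored in the oocyte is degraded. By the blastocyst stage it has built a fluid-filled cavity bounded by trophectoderm, a transporting epithelium that later contributes to the placenta, around an inner cell mass in which epiblast and primitive endoderm separate. A pool of maternal transcripts, a burst of transcripts specific to the 2-cell stage and the regulators of the blastocyst lineages are the best known landmarks of this interval. A whole embryo was sequenced in each library, so more cells of a type and more RNA per cell cannot be told apart.

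The blastocyst libraries held 6494506 to 31985958 counts and the 2-cell libraries 1049224 to 14127560 counts, of which 5823407 was the median. The 100 most abundant genes took 20.9% to 33.7% of the counts of a blastocyst and 10.8% to 18.1% of those of a 2-cell embryo. On the first principal component, with 61.8% of the variance, blastocysts lay between 127.3 and 158.3 and 2-cell embryos between -194.5 and -165.9, while 2-cell male 1 stood alone on the second component at 255.7. Markers of the somatic cumulus and granulosa cells around the oocyte summed to 0.199 to 10.5 counts-per-million (CPM) in blastocysts. They summed to 172.1 to 1394.5 CPM in 8 of the 2-cell embryos and to 0 to 9.85 CPM in the other 3 (female 1 and males 1 and 2, with identifier numbers 25, 26 and 27). In these 8 embryos Hsd3b1 reached 83.0 to 843.7 CPM and Cyp11a1 33.2 to 313.2 CPM, both enzymes of steroid synthesis, and 4 of the 15 markers were above 0 in every embryo. In the other 3 embryos 8 of the 15 markers were at 0, and in the 14 blastocysts 10 were at 0. Markers of stroma and oviduct summed to at most 13.8 CPM in blastocysts, 105.3 CPM in the 8 embryos and 3.17 CPM in the 3, and blood markers to at most 17.1, 132.6 and 9.06 CPM. Counts of called genes are therefore also given without those 8 embryos where this moves a result. That setting keeps only 3 2-cell embryos, among them male 1, with 11141 genes detected against 16251 in female 1 and 15496 in male 2. For a call lost in it, fewer embryos and the absence of granulosa RNA cannot be told apart.

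Of 12695 genes tested, 4635 (36.5%) were higher and 4526 (35.7%) lower in blastocysts than in 2-cell embryos by edgeR's quasi-likelihood test, at an adjusted p under 0.05. A difference of at least 4-fold was found for 2437 genes (19.2%) that were higher and 2588 (20.4%) that were lower. The counts within gene lists below are to be read against these shares. Every blastocyst lay above every 2-cell embryo for 1699 genes (13.4%) and below every one for 1732 (13.6%). The median log2 fold change over all genes was 0.06 and the median of its absolute value 1.55. With the 4 D707T blastocysts alone 3381 of 15086 genes were higher and 5473 lower. That is 38.2% of calls higher against 50.6% with all blastocysts, and the median moved to -0.59. More genes passed the count filter in this setting, so these shares and medians are over different genes. With all blastocysts and no count filter 38.5% of calls were higher, at a median of -0.53. Without the 8 2-cell embryos with granulosa markers 4220 of 14825 genes were higher and 3629 lower, at a median of 0.31, again over another set of genes. Of these calls 6692 were shared with the 9161 calls over all embryos. With the prefix as a term 3979 genes were higher and 3831 lower. With library totals in place of normalization factors 3669 genes were higher and 5465 lower (40.2% of calls), at a median of -0.40, so the fold changes below are relative to the bulk of the transcriptome and not per embryo.

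The genes with the largest rises were nearly all without a count in 2-cell embryos. Rab17, a small GTPase of epithelial trafficking, ranged over 104.4 to 255.1 CPM in blastocysts (median 151.4), against 0 counts in all 11 2-cell embryos. It was at least 4709.9-fold higher in blastocysts against a floor of 3 counts over the 2-cell group. The fitted log2 fold change was 13.99 ± 0.40 SE (adjusted p = 9.7e-16 by edgeR). With 0 counts in 2-cell embryos its size is not fixed by the data, and this SE does not measure that uncertainty. B3gnt5, a glycosyltransferase, had 5.67 to 362.6 CPM in blastocysts (median 94.6) and no count in 2-cell embryos, with 5.67 to 17.9 CPM in the D707T blastocysts and 44.7 to 362.6 CPM in the D405T blastocysts. Gjb5, a gap junction connexin, had 39 to 460.0 CPM in blastocysts (median 72), and Cdx2, the homeobox factor that specifies trophectoderm, 40.6 to 175.8 CPM (median 92.2), against 0 counts for both in 2-cell embryos. These rises were at least 3764.4-fold for Gjb5 and at least 2753.8-fold for Cdx2. The group went on with Tmprss2, a transmembrane serine protease, Nxf7, Vangl1, a planar polarity protein, Ly6f, Aqp8, a water channel, and Wnt3a, a secreted Wnt ligand. None of these 6 had a count in a 2-cell embryo, and their lower bounds ran from 1129.6-fold (Wnt3a) to 2805.1-fold (Tmprss2). Enpep, a membrane aminopeptidase, had 46.5 to 166.7 CPM in blastocysts (median 91.7) and a single count among 2-cell embryos, a ratio of 8788.6 with an exact 95% counting interval of 1577.2 to 347145.6. Nxf7 and Aqp8 were lower in the D707T than in the D405T blastocysts (0 to 3.99 and 0 to 18.2 CPM, against 6.05 to 172.3 and 7.59 to 285.9 CPM) and did not reach the count filter with the D707T blastocysts alone.

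Many of the 12 genes with the largest falls are known from oocytes and the earliest cleavage stages. Omt2a, an oocyte maturation gene, had at most 0.168 CPM in blastocysts, with 13 of the 14 at 0, against 662.9 to 1644.3 CPM in 2-cell embryos (median 925.5), a log2 fold change of -15.16 ± 0.42 SE (adjusted p = 4.6e-21 by edgeR). Its neighbour Omt2b had at most 3.19 CPM in blastocysts, against 845.4 to 2832.9 CPM in 2-cell embryos. Obox3, a homeobox gene of the oocyte-specific Obox family, had no count in blastocysts, against 55.9 to 331.5 CPM in 2-cell embryos (median 175.0), and was at least 12606.3-fold lower in blastocysts. Rspo2, a secreted enhancer of Wnt signalling, was at least 8507.4-fold lower (0 counts in blastocysts, against 49.4 to 206.0 CPM in 2-cell embryos). Pak7, a kinase, Tcl1b4, Sebox, a homeobox factor of oocytes, Fbxo43, an inhibitor of the anaphase-promoting complex that holds the egg in meiotic arrest, Gli3, a transcription factor of Hedgehog signalling, and Rph3a were likewise without a count in blastocysts, with lower bounds from 5472.4-fold (Gli3) to 7351.9-fold (Tcl1b4). Oog3 had at most 0.997 CPM in blastocysts, against 877.8 to 2033.8 CPM in 2-cell embryos, and Obox5 at most 0.924 CPM, against 157.6 to 1436.4 CPM. Members of the Omt2, Obox, Oog and Tcl1b families have close copies, and no source used here says how the authors' counting shared reads between copies, so values of single members are uncertain.

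**Figure D1:**
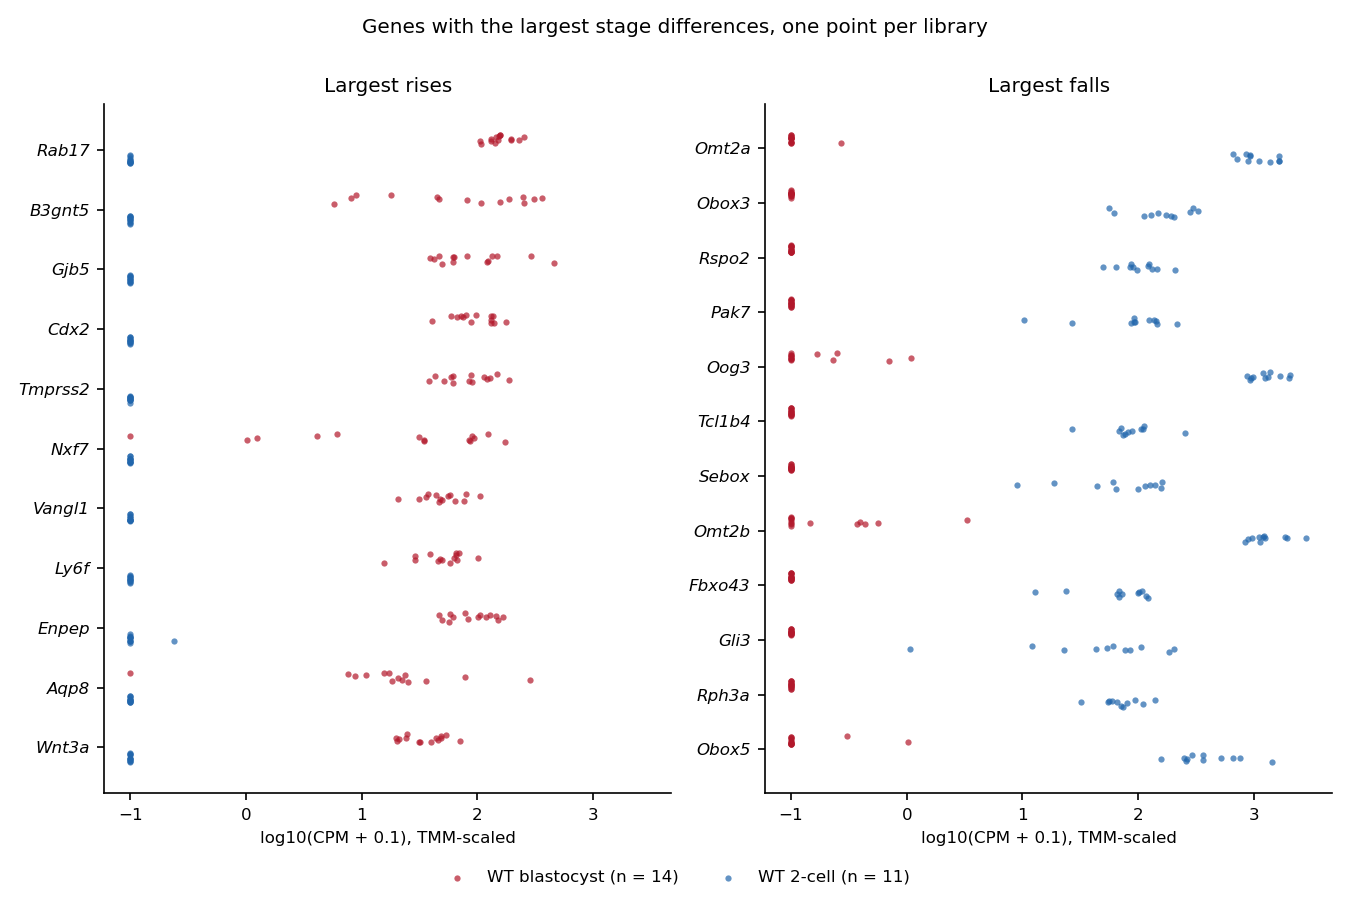
CPM of 11 of the genes with the largest rises and the 12 with the largest falls, one point per library on a log10(CPM + 0.1) axis, blastocysts (red, n = 14) above 2-cell embryos (blue, n = 11). A point at -1 is a library with no count. In the left panel all 2-cell points but a single one for Enpep lie at -1, and in the right panel most blastocyst points do.

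The sequences before the starts of the leading genes of each direction are shown to set the 250 bases upstream of a gene that is silent at 1 stage beside another. They are from RefSeq (GRCm38.p6), read 5′ to 3′ on the gene's strand, with CG dinucleotides in capitals.
Rab17, chr1:90967668-90967917, minus strand: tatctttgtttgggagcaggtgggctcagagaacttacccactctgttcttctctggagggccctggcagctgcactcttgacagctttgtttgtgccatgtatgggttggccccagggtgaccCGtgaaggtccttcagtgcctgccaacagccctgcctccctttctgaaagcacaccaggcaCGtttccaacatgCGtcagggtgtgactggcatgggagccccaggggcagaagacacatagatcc
B3gnt5, chr16:19759984-19760233, plus strand: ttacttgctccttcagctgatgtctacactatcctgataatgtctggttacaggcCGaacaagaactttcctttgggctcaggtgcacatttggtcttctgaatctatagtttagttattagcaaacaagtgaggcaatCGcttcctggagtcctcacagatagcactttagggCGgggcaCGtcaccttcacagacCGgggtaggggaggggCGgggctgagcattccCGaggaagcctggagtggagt
Omt2a, chr9:78314049-78314298, minus strand: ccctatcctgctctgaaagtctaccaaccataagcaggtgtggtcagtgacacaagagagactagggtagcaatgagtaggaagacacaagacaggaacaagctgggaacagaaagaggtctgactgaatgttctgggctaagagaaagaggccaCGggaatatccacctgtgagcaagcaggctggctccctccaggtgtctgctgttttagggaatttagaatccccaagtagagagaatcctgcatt
Obox3, chr7:15639778-15640027, minus strand: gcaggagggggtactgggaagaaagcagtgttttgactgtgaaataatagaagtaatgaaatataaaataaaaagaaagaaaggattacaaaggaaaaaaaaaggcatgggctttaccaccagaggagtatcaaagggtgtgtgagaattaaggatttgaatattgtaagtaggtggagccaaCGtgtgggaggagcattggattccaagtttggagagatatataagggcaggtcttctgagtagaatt
Among genes that rose, the 250 bases of Rab17 held 3 CG dinucleotides (56.8% G+C), those of B3gnt5 7 (51.2%) and those of Gjb5, not printed, 3 (54.4%). Among genes that fell, those of Omt2a held 1 (49.2%), those of Obox3 1 (38.8%) and those of Pak7, not printed, 7 (52.4%), so the number of CG dinucleotides overlapped between the directions. The promoter table matched 69.5% of the genes at least 4-fold higher, 73.3% of those at least 4-fold lower and 75.5% of all genes tested, too few for shares of promoter features over these sets, so none are given.

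Maternal transcripts and those of the 2-cell stage were lower in blastocysts almost throughout. Of 43 oocyte transcripts tested, 42 fell and none rose, 39 of them at least 4-fold, with a median log2 fold change of -7.96, against 35.7% and 20.4% of all genes and a median of 0.06. The mean log2 CPM over the list was -1.23 to 0.04 in blastocysts and 5.62 to 7.37 in 2-cell embryos, with no overlap. Bmp15 and Gdf9, growth factors secreted by the oocyte, had at most 3.89 and 11 CPM in blastocysts, against 33.1 to 191.0 and 165.4 to 358.7 CPM in 2-cell embryos. The zona pellucida genes Zp1, Zp2 and Zp3 had medians of 0, 0.292 and 4.15 CPM in blastocysts, against 61.9, 67.4 and 196.1 CPM in 2-cell embryos. Nlrp9c fell by 12.57 on the log2 scale, to at most 0.152 CPM in blastocysts against 82.2 to 287.5 CPM in 2-cell embryos. The germ cell RNA-binding gene Dazl fell by 6.98 and the nuclear chaperone gene Npm2 by 7.15. The exception was Dppa3 (Stella), which guards the maternal genome against loss of DNA methylation. It had 850.2 to 2605.9 CPM in blastocysts (median 1280.9) and 855.4 to 3816.0 CPM in 2-cell embryos (median 1612.4), with overlapping groups (log2 fold change -0.21 ± 0.24 SE, adjusted p = 0.43 by edgeR), and without the 8 2-cell embryos with granulosa markers the difference was -0.75 (adjusted p = 0.031).

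Of 19 transcripts of the 2-cell stage, 18 fell, 17 of them at least 4-fold, with a median log2 fold change of -6.58. The Zscan4 genes mark the transcriptional burst of the 2-cell embryo. Zscan4a had at most 0.0762 CPM in blastocysts, against 3.01 to 143.3 CPM in 2-cell embryos (median 48.1), and Zscan4d at most 2.31 CPM, against 6.77 to 80.6 CPM. Tcstv1 and Tcstv3 had medians of 0.0339 and 0 CPM in blastocysts, against 30.9 and 12.9 CPM in 2-cell embryos, and Usp17lb, a deubiquitinase of a multicopy family, 0 against 28.3 CPM. Sp110 remained readily detected, at 17.5 to 199.0 CPM in blastocysts against 658.1 to 2185.0 CPM in 2-cell embryos. All 7 Obox genes fell, and every blastocyst lay below every 2-cell embryo for each of them. Obox6 kept the highest level in blastocysts, with a median of 9.15 CPM, against 544.9 CPM in 2-cell embryos. Another 15 listed genes of the 2-cell stage, among them Zscan4f and Duxf3, did not pass the filter on low counts.

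The subcortical maternal complex, a protein assembly that the oocyte passes to the cleaving embryo, split by member. Zbed3, Nlrp5 (Mater), Nlrp2, Tle6, Nlrp4f and Padi6 fell, Nlrp5 to at most 6.33 CPM in blastocysts, against 101.6 to 181.5 CPM in 2-cell embryos. Khdc3 (Filia) rose by 6.55 ± 0.33 SE on the log2 scale, with 637.4 to 2317.2 CPM in blastocysts (median 1251.3) and 4.26 to 25.6 CPM in 2-cell embryos (median 14.6), without overlap (adjusted p = 1.3e-15 by edgeR). Ooep rose by 1.71 ± 0.24 SE, at 57.5 to 177.5 CPM in blastocysts and 13.7 to 57.8 CPM in 2-cell embryos, where the groups met at 57.5 and 57.8 CPM. Of 24 genes of maternal mRNA storage and decay 16 fell and 3 rose, against 35.7% of all genes lower and 36.5% higher. Btg4, the adaptor that recruits the deadenylase to maternal mRNA, had at most 0.949 CPM in blastocysts, against 215.6 to 641.1 CPM in 2-cell embryos. The deadenylase subunits Cnot6l, Cnot7 and Cnot8 fell by 4.0, 2.35 and 2.10 on the log2 scale, and the mRNA-binding genes Zar1 by 7.62, with Zar1l at -8.47. The 3 that rose were Patl2, Igf2bp2 and Ddx6. Ddx6 (0.80 ± 0.32 SE) lost its call with the D707T blastocysts alone, at -0.20 (adjusted p = 0.76), and without the 8 2-cell embryos with granulosa markers, at 0.83 (adjusted p = 0.24).

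Most trophectoderm regulators were higher in blastocysts. Of 16 tested, 13 rose, none fell and 3 (Ets2, Hand1 and Grhl2) were not called, against 36.5% of all genes higher. Of the rises 11 were at least 4-fold, against 19.2% of all genes, and the median log2 fold change was 3.13. Eomes, a T-box factor of trophoblast, had 85.9 to 1146.6 CPM in blastocysts (median 649.2), against 0 to 7.25 CPM in 2-cell embryos (median 3.89), and Gata3 258.8 to 561.7 CPM (median 371.8), against 0 to 4.92 CPM (median 1.35). Neither gene overlapped between stages, and Eomes was lower in the D707T blastocysts (85.9 to 186.9 CPM) than in the D405T blastocysts (324.7 to 1146.6 CPM). Msx2 had 8.13 to 36.7 CPM in blastocysts and no count in 2-cell embryos, at least 472.7-fold higher. Klf5, which is required for trophectoderm in mice, had 274.5 to 649.2 CPM in blastocysts and 8.0 to 111.7 CPM in 2-cell embryos, a log2 fold change of 2.78 ± 0.29 SE. Tead4 and Tfap2c, both already present at the 2-cell stage (medians 123.2 and 103.2 CPM, against 221.7 and 175.7 CPM in blastocysts), differed by 0.88 and 0.76 on the log2 scale. Without the 8 2-cell embryos with granulosa markers these differences were 0.30 (adjusted p = 0.37) and 0.15 (adjusted p = 0.68). Gata2 rose by 4.50 ± 0.69 SE with all blastocysts, at 3.36 to 329.7 CPM against 0 to 12.2 CPM in 2-cell embryos, and with the D707T blastocysts alone its difference was 0.82 (adjusted p = 0.40). With those 4 blastocysts 11 of 18 tested regulators rose and 2, Dlx3 and Ascl2, fell, and with library totals 12 of 16 rose and 2 fell. Elf5, Dlx3 and Ascl2 did not pass the count filter with all blastocysts, and of these Elf5 had 0 to 48.8 CPM in blastocysts and no count in 2-cell embryos.

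The Hippo pathway, whose kinases keep YAP out of the nucleus of inner cells and leave it free in outer cells to switch on Cdx2 with TEAD4, had members in both directions. Of 22 genes tested, 7 rose and 8 fell, near the 36.5% and 35.7% of all genes, at a median of -0.04, and with library totals 6 rose and 10 fell. The rises included the angiomotins Amotl2 and Amot and the TEAD factor Tead2, Amotl2 with 70.9 to 258.1 CPM in blastocysts and 0 to 14.4 CPM in 2-cell embryos, Tead2 with 40.6 to 162.0 and 0.216 to 27.9 CPM, and Amot with a median of 84.1 CPM in blastocysts and 14.9 CPM in 2-cell embryos. Yap1 itself fell by 2.27 ± 0.28 SE, with a median of 67.4 CPM in blastocysts against 346.7 CPM in 2-cell embryos, and its range in 2-cell embryos (23 to 531.7 CPM) overlapped that of blastocysts (36.9 to 95.4 CPM). The lowest 2-cell value of Yap1 was that of male 1, the embryo that stood alone on the second principal component. Every other 2-cell embryo lay above every blastocyst for Yap1. The Yap1 difference was -0.93 without the 8 2-cell embryos with granulosa markers. That setting keeps male 1, beside female 1 (223.1 CPM) and male 2 (171.4 CPM), and the part of male 1 in the smaller difference was not tested. Wwc2, of a family that activates the LATS kinases, fell most, by 2.73 ± 0.17 SE. Lats1, Nf2, Mob1a and Mob1b, of the kinase cascade, fell by 1.06 to 1.56, while Lats2 rose by 1.06.

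**Figure D2:**
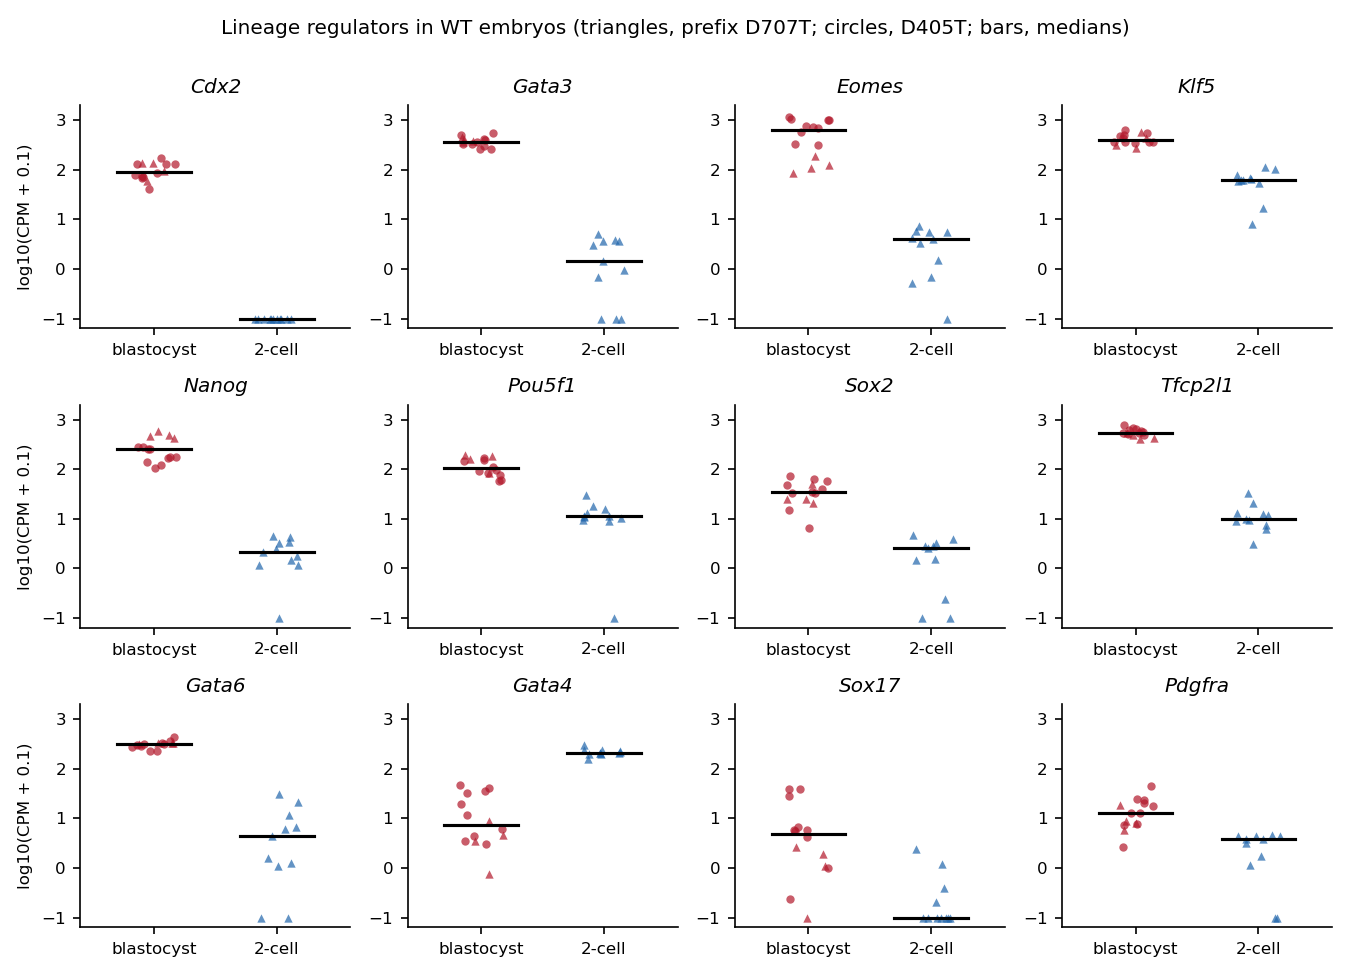
CPM of 12 lineage regulators on a log10(CPM + 0.1) axis, blastocysts (red) left of 2-cell embryos (blue), with 1 point per library, triangles for prefix D707T, circles for D405T and bars for group medians. Cdx2 was at 0 in every 2-cell embryo, Eomes and Nanog differed between the prefixes among blastocysts, and Gata4 was the one gene of the 12 that was lower in blastocysts.

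Genes of the trophectoderm epithelium followed its regulators. Of 39 tested, 27 rose and 3 fell, 23 of the rises at least 4-fold, and for 20 every blastocyst lay above every 2-cell embryo, against 13.4% of all genes. The keratins Krt8 and Krt18, the intermediate filaments of the layer, had medians of 2228.2 and 2229 CPM in blastocysts, against 2.07 and 1.90 CPM in 2-cell embryos, and Fabp3, a fatty acid binding protein, 909.6 against 2.04 CPM. Tight junction genes rose by very different amounts. Cldn4 had 211.8 to 750.7 CPM in blastocysts and 0 to 3.98 CPM in 2-cell embryos, and Cldn7 93.2 to 521.0 CPM and 0.324 to 21.5 CPM. Tjp3 rose by 2.53 on the log2 scale, whereas Tjp1, Ocln, Cgn and Cldn6 were not called, with medians of 78.8, 15.5, 25.2 and 74.5 CPM in blastocysts and 71.3, 21.6, 21.7 and 52.7 CPM in 2-cell embryos. Cgn was called without the 8 2-cell embryos with granulosa markers, at 1.88 (adjusted p = 0.044), and Ocln with the D707T blastocysts alone, at -1.64 (adjusted p = 0.034). Of the adhesion genes, Cdh1 (E-cadherin) rose by 2.97 ± 0.30 SE and Ctnna1 by 2.80 ± 0.21 SE, and the desmosomal genes Dsp, Dsg2, Pkp2 and Jup by 3.02 to 8.53. Of the sodium pump, which drives cavity filling, the beta subunit gene Atp1b1 was not called (medians 41.3 CPM in blastocysts and 48.9 CPM in 2-cell embryos, adjusted p = 0.80 by edgeR) and Atp1b3 fell by 1.36 ± 0.22 SE (100.6 and 263.5 CPM). The water channels Aqp8 and Aqp3 rose, Aqp3 at a median of 4.99 CPM in blastocysts and 0 in 2-cell embryos, and Aqp9 fell by 0.58 ± 0.20 SE. Aqp9 was at -0.77 (adjusted p = 0.068) without the 8 2-cell embryos with granulosa markers. In a list of endocytic receptors and related genes 6 of 10 rose, 2 fell and 2 were not called. The rises were led by Lrp2 (megalin), with 129.6 to 1318.4 CPM in blastocysts and 0 to 16.8 CPM in 2-cell embryos, and its adaptor Dab2, with 570.8 to 1254.5 and 7.58 to 60.2 CPM. The 2 that fell were Fgr and Clu, by 6.88 ± 1.04 and 6.55 ± 1.17 SE, with medians of 0 CPM in blastocysts and 11.6 and 13.4 CPM in 2-cell embryos. Clu was at -3.16 (adjusted p = 0.098) without the 8 2-cell embryos with granulosa markers.

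Pluripotency genes of the inner cell mass went both ways. Of 23 tested, 13 rose and 5 fell, at a median of 1.42, against 36.5% of all genes higher and 35.7% lower. Nanog, a homeobox factor of the epiblast, had 106.8 to 594.5 CPM in blastocysts (median 256.1) and 0 to 4.42 CPM in 2-cell embryos (median 2.05), a log2 fold change of 6.95 ± 0.40 SE. Its level was 427.2 to 594.5 CPM in the D707T blastocysts and 106.8 to 285.8 CPM in the D405T blastocysts. Tfcp2l1 had 414.1 to 795.8 CPM in blastocysts and 3.01 to 32.8 CPM in 2-cell embryos, Pou5f1 (Oct4) 58.2 to 193.0 and 0 to 29.9 CPM, and Sox2 6.37 to 74.2 and 0 to 4.54 CPM. None of these 4 genes overlapped between stages. Klf4, Klf2 and Esrrb were not called, with medians of 94.8, 57.7 and 74.2 CPM in blastocysts and 127.3, 54.3 and 52.4 CPM in 2-cell embryos. Esrrb was called with the D707T blastocysts alone, at 0.83 (adjusted p = 0.049). The 5 that fell were Enox1, Fgf4, Spic, Nr5a2, an orphan nuclear receptor (by 1.08 ± 0.17 SE, medians 95.8 and 167.6 CPM), and Dppa4. Dppa4 was at -0.46 (adjusted p = 0.12) with the D707T blastocysts alone.

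In the primitive endoderm list 15 of 19 genes rose and 2 fell, and with the D707T blastocysts alone 7 rose and 3 fell. Gata6, which initiates this lineage, had 227.1 to 448.5 CPM in blastocysts (median 321.4) and 0 to 31.7 CPM in 2-cell embryos (median 4.24), without overlap. Gata4, which acts after it, fell by 3.8 ± 0.48 SE, with 0.671 to 46.6 CPM in blastocysts (median 7.41) and 162.0 to 303.0 CPM in 2-cell embryos (median 212.5), also without overlap (adjusted p = 7.9e-08 by edgeR). Hnf4a rose by 4.10 ± 0.69 SE to a median of 9.93 CPM in blastocysts against 0.341 CPM in 2-cell embryos. Sox17 (medians 4.79 and 0 CPM) and Pdgfra (12.8 and 3.75 CPM) were called with all blastocysts, at 5.05 and 2.48, and not with the D707T blastocysts alone, at 2.89 (adjusted p = 0.080) and 1.76 (adjusted p = 0.11). Sox17 was also not called without the 8 2-cell embryos with granulosa markers, at 3.97 (adjusted p = 0.088). The basement membrane genes Col4a1, Col4a2 and Lamb1 rose by 2.76, 3.24 and 1.95, and Lama1 and Lamc1, which rose with all blastocysts, were at 0.10 (adjusted p = 0.96) and -0.06 (adjusted p = 0.95) with the D707T blastocysts alone. The whole list had a mean log2 CPM of 2.65 to 3.8 in D707T blastocysts, 3.18 to 5.50 in D405T blastocysts and 0.19 to 3.46 in 2-cell embryos. In the FGF and MAPK signalling list, which includes the signal that separates epiblast from primitive endoderm, 9 of 20 rose and 7 fell. Of all genes 36.5% were higher and 35.7% lower. The ligand Fgf4 fell by 1.85 ± 0.45 SE and the receptor Fgfr2 rose by 3.10 ± 0.36 SE, while the feedback inhibitor Spry4 fell by 7.48 ± 0.53 SE, to at most 8.97 CPM in blastocysts against 99.9 to 608.0 CPM in 2-cell embryos.

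**Figure D3:**
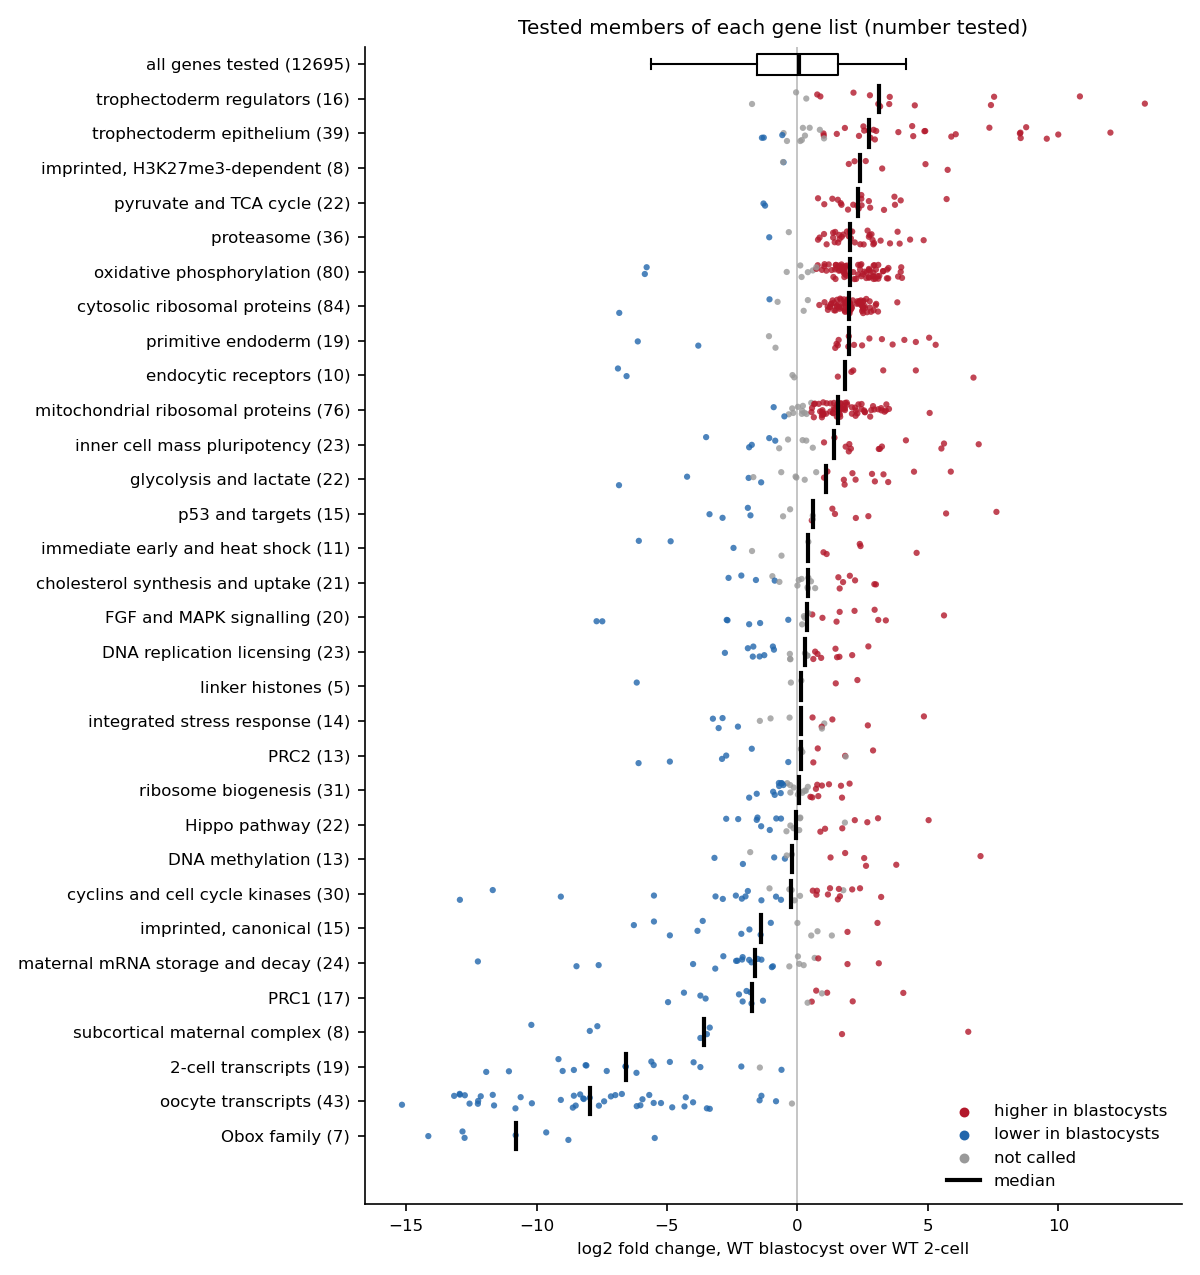
Log2 fold change of blastocysts over 2-cell embryos for the tested members of each list with at least 5 tested genes, ordered by the list median (black bar), with members coloured by call and the number tested in parentheses. The top row is a box plot of all 12695 genes with whiskers at the 5th and 95th percentiles. The Obox family, at a median of -10.8, and the oocyte transcripts, at -7.96, lie at the low end, and trophectoderm regulators, at 3.13, at the high end.

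Genes of energy metabolism were mostly higher in blastocysts, the stage at which the embryo is known to turn from pyruvate towards glucose. Of 22 genes of pyruvate use and the tricarboxylic acid cycle, 20 rose and 2 fell, at a median of 2.32. Suclg1, a subunit of succinyl-CoA ligase, had 604.9 to 1234.3 CPM in blastocysts and 0.541 to 40.6 CPM in 2-cell embryos, and Dlat, of the pyruvate dehydrogenase complex, 107.6 to 281.5 and 4.86 to 22 CPM. The 2 that fell were the mitochondrial pyruvate carrier genes Mpc1 and Mpc2, by 1.30 ± 0.25 and 1.24 ± 0.22 SE. They were at -0.55 (adjusted p = 0.091) and -0.67 (adjusted p = 0.066) with the D707T blastocysts alone. In glycolysis and lactate handling 12 of 22 rose and 4 fell, against 36.5% of all genes higher and 35.7% lower. Hk2, the hexokinase, had 36.1 to 160.4 CPM in blastocysts and 0 to 6.95 CPM in 2-cell embryos, the glucose transporter Slc2a3 78.1 to 874.3 and 0.324 to 42 CPM, and Aldoa 795.5 to 1583.1 and 39.5 to 183.0 CPM. Slc2a1 was not called (medians 33.1 CPM in blastocysts and 32.4 CPM in 2-cell embryos, adjusted p = 0.50 by edgeR) and was at 0.90 (adjusted p = 0.042) with the D707T blastocysts alone. The lactate dehydrogenases diverged. Ldhb fell by 6.84 ± 0.44 SE, with 0.719 to 15.3 CPM in blastocysts and 337.9 to 698.4 CPM in 2-cell embryos, and Ldha was not called, with medians of 48.8 and 51.4 CPM (log2 fold change -0.04 ± 0.40 SE).

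In the oxidative phosphorylation list 72 of 80 nuclear genes rose and 2 fell, at a median of 2.02, and for 43 every blastocyst lay above every 2-cell embryo. The ATP synthase subunit gene Atp5a1 had 1784.4 to 3576.6 CPM in blastocysts and 192.0 to 326.1 CPM in 2-cell embryos. The 2 that fell were Cox4i2 and Cox6b2, alternative cytochrome c oxidase subunit genes, to at most 2.68 and 3.18 CPM in blastocysts, against 9.0 to 33.5 and 34.9 to 161.8 CPM in 2-cell embryos. The rise was found for 66 of 81 without the 8 2-cell embryos with granulosa markers and for 75 of 82 with the D707T blastocysts alone. Of 36 proteasome genes 34 rose and Psmb10, an immunoproteasome subunit, fell, at a median of 2.03. Psma7 had 638.1 to 1019.8 CPM in blastocysts and 14.8 to 162.1 CPM in 2-cell embryos. Psmb10 was at -0.11 (adjusted p = 0.85) with the D707T blastocysts alone.

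Cytosolic ribosomal protein genes rose in 79 of 84 cases, and their level also varied within each stage. Their mean log2 CPM was 9.06 to 11.1 in blastocysts and 7.58 to 9.16 in 2-cell embryos, so the ranges met. Within blastocysts it was 10.3 to 11.1 under prefix D707T and 9.06 to 10.2 under D405T, and within 2-cell embryos 7.58 to 8.03 in the 8 with granulosa markers and 8.70 to 9.16 in the other 3. Without those 8 embryos 51 of 84 rose, at a median of 1.16, against 1.97 with all embryos. Their part in the result beyond these values was not tested. Rpl3 had 2391.7 to 4496.2 CPM in blastocysts and 81.7 to 569.3 CPM in 2-cell embryos, and its muscle paralog Rpl3l fell by 6.83 ± 0.81 SE, to at most 1.45 CPM in blastocysts against 6.05 to 56.8 CPM in 2-cell embryos. Many ribosomal protein genes have processed copies that can take their reads, so single values are uncertain. Mitochondrial ribosomal protein genes rose in 64 of 76 cases, and in 45 of 76 without the 8 embryos. Of 31 ribosome biogenesis factors 10 were higher and 10 lower, near the shares of all genes (36.5% and 35.7%). Npm1 and Ncl, the abundant nucleolar proteins, rose by 1.67 and 2.00, and Wdr43 fell by 1.85 ± 0.13 SE. Without the 8 embryos 3 of 31 were higher and 10 lower, and with library totals 6 and 16.

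**Figure D4:**
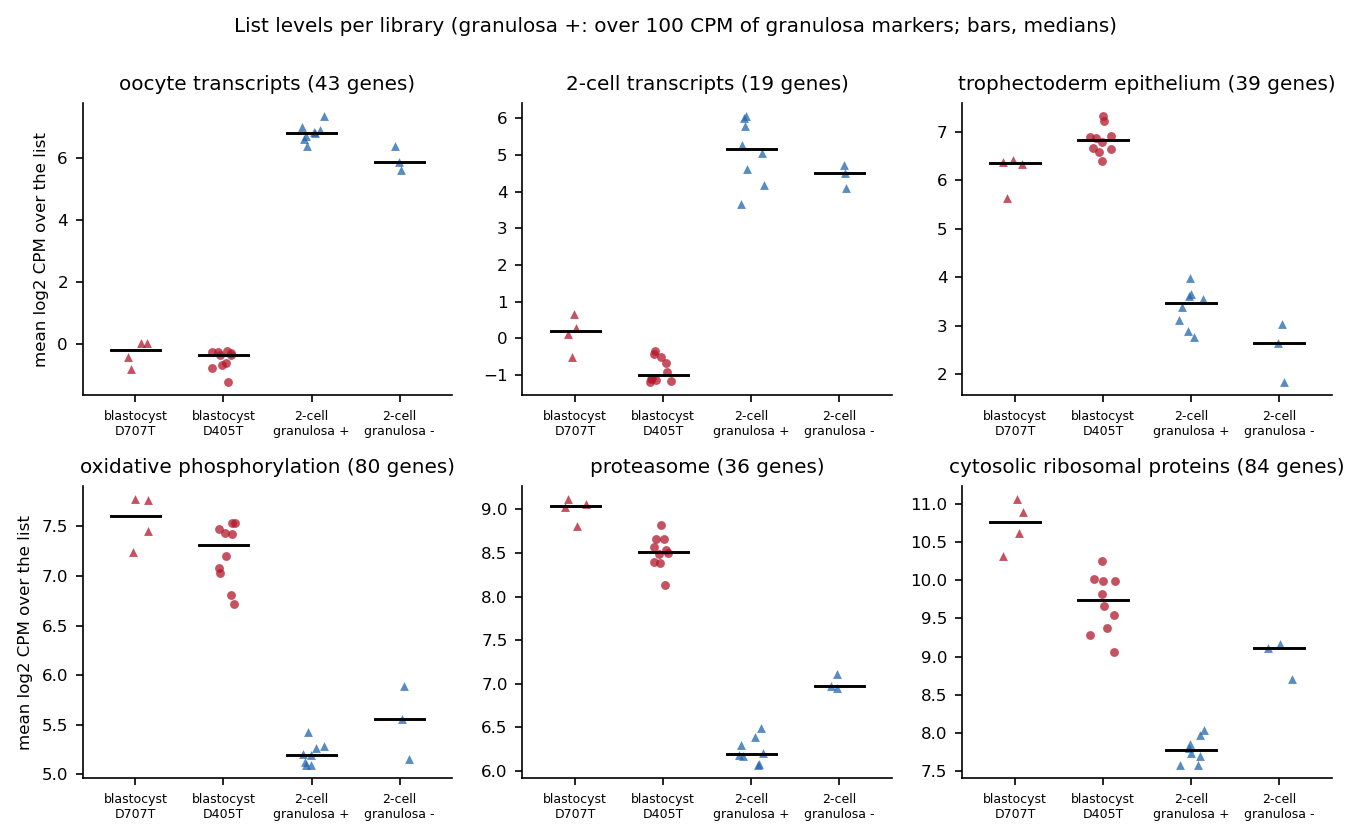
Mean log2 CPM of 6 lists in each library, with D707T and D405T blastocysts (red) left of 2-cell embryos (blue) with over 100 CPM of granulosa markers (+, 8 embryos) and with less (-, 3 embryos), and bars for medians. Oocyte transcripts do not overlap between stages, and cytosolic ribosomal proteins differ between prefixes among blastocysts and between the 8 and the 3 2-cell embryos.

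Cell cycle genes went both ways, in shares near those of all genes (36.5% higher and 35.7% lower). Of 30 cyclins and kinases 11 rose and 13 fell, and with the D707T blastocysts alone 5 of 31 rose and 12 fell. The largest falls were in the meiotic genes Fbxo43, Wee2 and Ccnb3, the last with 0 counts in blastocysts, against 1.09 to 16.3 CPM in 2-cell embryos, at least 466.1-fold lower. Among the cyclins of the somatic cycle Ccne1, Ccne2 and Ccna2 fell by 2.36, 2.86 and 1.99, and Ccnd3 and Ccnb2 rose by 3.21 and 2.10. Ccna2 had 246.7 to 435.3 CPM in blastocysts and 894.0 to 1906.6 CPM in 2-cell embryos, and Ccnd3 176.7 to 665.6 and 37.3 to 63.4 CPM, neither with overlap. Of 23 replication licensing genes 9 rose and 8 fell, also near the shares of all genes. Mcm5 and Orc3 rose by 2.10 and 2.72, and Dbf4, which activates the kinase that fires origins, fell by 2.78 ± 0.18 SE (88.0 to 204.1 CPM in blastocysts, 349.1 to 1320.0 CPM in 2-cell embryos). Without the 8 2-cell embryos with granulosa markers 5 licensing genes rose and 11 fell, and with library totals 6 rose and 11 fell.

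Chromatin regulators bear on the study's question, since Ezhip restrains Polycomb repressive complex 2 (PRC2), the methyltransferase for lysine 27 of histone H3. Ezhip itself (AU022751) fell by 4.89 ± 0.92 SE, with 0 to 55.2 CPM in blastocysts (median 1.39) and 31.9 to 310.3 CPM in 2-cell embryos (median 104.0), and its ranges overlapped (adjusted p = 3.1e-05 by edgeR). It was higher in the D707T blastocysts (4.90 to 55.2 CPM) than in the D405T blastocysts (0 to 6.15 CPM), with a log2 fold change of 3.59 ± 0.87 SE (adjusted p = 0.0094), and with the D707T blastocysts alone the stage difference was -2.31 (adjusted p = 0.0034). Of the PRC2 core, Eed was not called (medians 207.2 CPM in blastocysts and 208.7 CPM in 2-cell embryos), Ezh2 was lower by 0.35 ± 0.13 SE on the log2 scale (279.9 and 352.3 CPM), a call lost without the 8 embryos (-0.33, adjusted p = 0.20), and Suz12 fell by 1.75 ± 0.19 SE (283.7 and 932.8 CPM). Accessory genes moved further. Jarid2 rose by 2.90 ± 0.16 SE, with 388.5 to 755.7 CPM in blastocysts and 49.3 to 123.1 CPM in 2-cell embryos, whereas Phf1 fell by 6.09 ± 0.67 SE, to 0 to 11.7 CPM against 36.2 to 555.5 CPM, and Ezh1, the alternative catalytic subunit, by 2.73 ± 0.26 SE. In PRC1, the Polycomb complex that ubiquitinates histone H2A, 10 of 17 genes fell and 5 rose, against 35.7% of all genes lower and 36.5% higher. Bmi1 fell by 4.96 ± 0.28 SE, with 22.5 to 93.1 CPM in blastocysts and 712.9 to 2554.8 CPM in 2-cell embryos, Phc2 by 4.35, Cbx2 by 3.72 and the catalytic Rnf2 by 1.76. Cbx7, one of those that rose, was at 0.80 (adjusted p = 0.19) with the D707T blastocysts alone and at 0.46 (adjusted p = 0.38) without the 8 2-cell embryos with granulosa markers.

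Among DNA methylation genes 6 of 13 rose and 4 fell, against 36.5% of all genes higher and 35.7% lower. Dnmt3l and Dnmt3b, of the de novo machinery, rose by 2.63 and 2.56, Dnmt3l with 248.5 to 442.1 CPM in blastocysts and 33.7 to 71.8 CPM in 2-cell embryos. Dnmt3a, also a de novo enzyme, was lower by 0.89 ± 0.22 SE (medians 40.3 and 75.2 CPM), a call lost with the D707T blastocysts alone (-0.51, adjusted p = 0.11) and without the 8 embryos (-0.42, adjusted p = 0.35). Dnmt1, which maintains methylation, had medians of 94.6 and 135.2 CPM (-0.48 ± 0.18 SE) and was not called without the 8 embryos (-0.59, adjusted p = 0.091). The dioxygenases turned over, Tet3, which is maternal, falling by 3.18 ± 0.53 SE and Tet2 rising by 3.79 ± 0.52 SE, and Tdg, the glycosylase that acts after them, rose by 7.02 ± 0.55 SE to a median of 36 CPM in blastocysts against 0.107 CPM in 2-cell embryos. Genes imprinted through maternal histone H3 lysine 27 methylation rose in 6 of 8 cases, and in 3 of 8 with the D707T blastocysts alone. Slc38a4, an amino acid transporter, had 43.9 to 156.7 CPM in blastocysts and 0 to 4.99 CPM in 2-cell embryos, and Sfmbt2, a Polycomb-like gene, 8.77 to 75.5 and 0 to 6.84 CPM, neither with overlap. Gab1, a signalling adaptor, rose by 2.19 ± 0.25 SE. Of 15 genes with canonical imprints 9 fell and 2 rose, led by the growth-restraining genes Phlda2, to 0 to 7.12 CPM in blastocysts against 26.6 to 184.5 CPM in 2-cell embryos, and Cdkn1c, to 0 to 5.17 CPM against 14.7 to 156.5 CPM. Without the 8 2-cell embryos with granulosa markers 7 of 19 genes then tested fell and 2 rose. The list median was 0.55 over those 19 genes and -1.41 over the 15 tested with all embryos, so the medians are over different genes. These counts do not separate the parental alleles.

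Further lists were mixed, to be read against 36.5% of all genes higher and 35.7% lower. Of 21 cholesterol genes 7 rose and 4 fell, with Sqle lower by 2.64 ± 0.18 SE. Of 15 genes of p53 and its targets 7 rose and 4 fell. Perp, a membrane target of p53 and p63, had 69.6 to 313.3 CPM in blastocysts and 0 to 4.20 CPM in 2-cell embryos, and Mdm2, which degrades p53, fell by 1.80 ± 0.15 SE. Stress genes were likewise split, 5 of 14 of the integrated stress response and 5 of 11 immediate early and heat shock genes rising and 4 and 3 falling, with Asns, asparagine synthetase, at a median of 142.3 CPM in blastocysts and 3.66 CPM in 2-cell embryos. Trib3 fell by 3.02 ± 0.36 SE. The split of these lists depended on the scaling. With library totals 3 of 14 stress response genes rose and 5 fell, 4 and 4 of the p53 list, 4 and 4 of the immediate early and heat shock list, 7 and 16 of the cyclin list, 5 and 7 of the DNA methylation list and 2 and 7 of the PRC2 list. The linker histone of the oocyte, H1foo, fell by 6.16 ± 0.84 SE and the somatic Hist1h1c and H1f0 rose by 2.30 and 1.47.

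On the scale of level per transcript length, the ribosomal protein gene Rplp1 was the most abundant at both stages, at 9726.1 CPM per kilobase of gene length in blastocysts and 4746.7 CPM per kilobase in 2-cell embryos. Eef1a1, the elongation factor, stood at 6208.4 CPM per kilobase in blastocysts and 343.4 in 2-cell embryos, and Dppa3 at 1711.2 and 1972.5. The spread between libraries of a stage was of like size. Over 4869 genes with at least 20 CPM the median SD of log2 CPM was 0.472 in blastocysts and 0.539 in 2-cell embryos, and with all libraries thinned to the lowest total 0.497 and 0.534. It was 0.379 within either prefix group of blastocysts and 0.457 in 2-cell embryos without male 1.

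The stages were next compared by sex. Xist, the noncoding RNA that coats and silences the inactive X, had 203.0 to 838.2 CPM in female blastocysts (median 463.9), 0 to 4.98 CPM in male blastocysts (median 0.756), 0.107 to 67.5 CPM in female 2-cell embryos (median 4.05) and 0 to 3.26 CPM in male 2-cell embryos (median 0.0684). The sexes did not overlap in blastocysts and did in 2-cell embryos. The level of X-linked genes was taken in each library as the mean log2 CPM of 337 X-linked genes minus that of 10011 autosomal genes averaging 5 CPM or more, and 4 comparisons were made with exact two-sided permutation tests. Female 2-cell embryos lay at -0.0376 ± 0.12 (SD, n = 5) and male 2-cell embryos at -0.661 ± 0.21 (n = 6), a difference of 0.623 (exact p = 0.00433, adjusted p = 0.0173). Female blastocysts lay at -0.167 ± 0.16 (n = 6) and male blastocysts at -0.354 ± 0.18 (n = 8), a difference of 0.187 that did not pass (exact p = 0.0689, adjusted p = 0.0919). This difference was called with genes averaging 20 CPM or more, at 0.267 (adjusted p = 0.0111), and as a ratio of summed CPM, at 0.431 (adjusted p = 0.000666). Between stages, males were higher as blastocysts by 0.307 (exact p = 0.016, adjusted p = 0.032) and females differed by -0.129 (exact p = 0.186). With genes down to 1 CPM the male difference was 0.225 (adjusted p = 0.0946) and with the D707T blastocysts alone 0.197 (adjusted p = 0.317). It was also not called without any of 2-cell males 2, 3 and 4 and blastocyst males 1 to 4, at 0.256 to 0.294 (adjusted p 0.0536 to 0.0824). The ratio of summed CPM turned the female difference to 0.165 (adjusted p = 0.0476), and without blastocyst female 5 the sexes differed by 0.251 among blastocysts (adjusted p = 0.0186). Whether the stage difference itself differed by sex was tested per gene, and 2 of 12695 genes (0.0158%) were called, 1 in each direction (0.00788% each), with 574 at an unadjusted p under 0.05. Tbl1x, an X-linked corepressor subunit, had 37.3 to 119.2 CPM in female blastocysts, 22.7 to 37.4 CPM in female 2-cell embryos, 40.9 to 153.3 CPM in male blastocysts and 0 to 3.96 CPM in male 2-cell embryos (interaction, females minus males, -4.79 ± 0.86 SE, adjusted p = 0.044 by edgeR). The Tbl1x call did not hold without the count filter (adjusted p = 0.068) or without any 1 of 20 of the 25 libraries, all but 2-cell males 2, 4, 5 and 6 and blastocyst male 6 (adjusted p 0.056 to 0.13). Fam65c had 0.106 to 1.90 CPM in female blastocysts, 3.11 to 18.6 CPM in female 2-cell embryos, 0 to 0.0469 CPM in male blastocysts and 10.4 to 26 CPM in male 2-cell embryos (interaction 7.0 ± 1.10 SE, adjusted p = 0.010), and with legacy=FALSE, the newer form of the edgeR test, the Fam65c call did not hold (adjusted p = 0.29). With male blastocysts at or near 0 CPM the size of this interaction is not fixed by the data, and its SE does not measure that uncertainty.

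**Figure D5:**
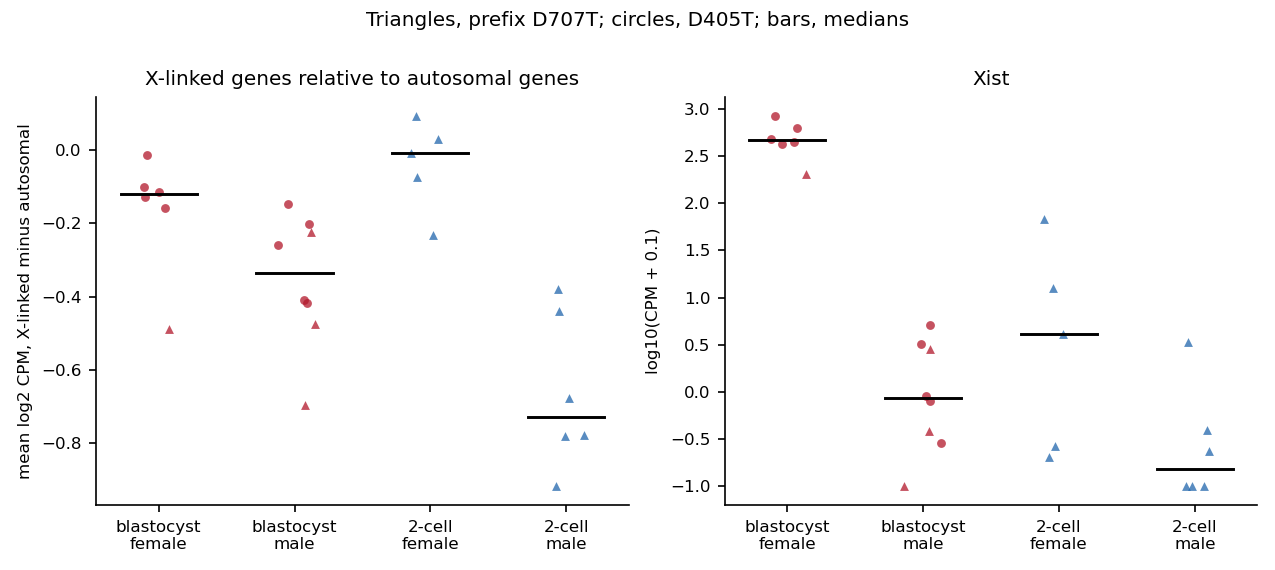
Left, mean log2 CPM of 337 X-linked genes minus that of 10011 autosomal genes in each library. Right, Xist on a log10(CPM + 0.1) axis. Blastocysts (red) stand left of 2-cell embryos (blue) and females left of males, with triangles for prefix D707T, circles for D405T and bars for medians. Male 2-cell embryos have the lowest mean on the left, at -0.661, and only female blastocysts are all above 200 CPM of Xist on the right.

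Among blastocysts the prefix carried a difference of its own. Of 13332 genes 1054 (7.91%) were higher and 1294 (9.71%) lower in the 4 D707T than in the 10 D405T blastocysts. Map2k2, a MAP kinase kinase, had 820.4 to 1237.3 CPM in D707T and 271.0 to 396.2 CPM in D405T blastocysts, Rpl7a 3052.6 to 4547.9 and 825.5 to 1514.5 CPM, and L1td1, an RNA-binding protein of pluripotent cells, 145.4 to 200 and 360.7 to 646.6 CPM, none with overlap. Rpl13 and Bola1 were the other 2 of the 5 genes with the smallest p, both higher under D707T. In the lists 60 of 83 cytosolic ribosomal protein genes were higher and none lower under D707T, 13 of 39 trophectoderm epithelium genes were lower and 1 higher, and 6 of 19 primitive endoderm genes were lower and none higher. Without D707T female 5, 570 genes were higher and 716 lower. The total counts also differed, 6494506 to 14565817 in D707T and 14999539 to 31985958 in D405T blastocysts, and depth and prefix cannot be told apart.

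Whether the stage difference was the same in embryos of Ezhip-deleted mothers was asked in 1 model over 51 libraries with the prefix as a term. Of 14956 genes, 357 (2.39%) had a stage difference that was more positive in matKO than in WT embryos and 291 (1.95%) one that was more negative, 4.33% in all. On the scale of this model Gata2 had a median of 0.329 CPM (range 0 to 96.3) in matKO blastocysts and 23.7 CPM (4.98 to 60.9) in matKO 2-cell embryos, against 128.4 CPM (2.52 to 310.0) in WT blastocysts and 8.59 CPM (0 to 14.5) in WT 2-cell embryos. Its interaction was -4.79 ± 0.74 SE (adjusted p = 0.00017 by edgeR). Rdx, which links actin to the membrane, had medians of 12 CPM in matKO blastocysts and 315.1 CPM in matKO 2-cell embryos, against 97.4 and 213.9 CPM in WT embryos of those stages. Ckmt1 (169.4 and 0 CPM in matKO blastocysts and 2-cell embryos, 147.4 and 1.92 CPM in WT) and Tmem64 (87.9 and 0.182 CPM in matKO, 57.7 and 5.39 CPM in WT) had a larger fitted stage difference in matKO embryos. Their ranges in matKO 2-cell embryos were 0 to 1.58 and 0 to 4.79 CPM, and in blastocysts the ranges of the genotypes overlapped. The sizes of these 2 interactions thus depend on values near 0 and are not fixed by the data. Wbp5 had an interaction of 7.26, which was 1.27 (adjusted p = 0.66 by edgeR) without the 8 WT 2-cell embryos over 100 CPM of granulosa markers. All 12 matKO 2-cell embryos stayed in that setting, since the markers were summed in WT embryos only. Of 18266 genes tested in it, 992 were more positive and 753 more negative. Ezhip itself had an interaction of 1.69 ± 1.10 SE that was not called (adjusted p = 0.42), with medians of 0.146 and 1.02 CPM in matKO blastocysts and 2-cell embryos and 1.27 and 134.9 CPM in WT.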

How the data were processed

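Libraries were polyA RNA of single embryos made with the Accel-NGS 2S kit, per the labels. The authors deposited raw counts per gene in 1 table per stage; Trim Galore, STAR, SAMtools, featureCounts and the build mm10 are named in the submitters' processing notes, without versions or settings, and no source used here says whether strand or multiply mapped reads were used. The tables hold 48321 symbols, and 8 columns of counts without a labelled sample were not used.

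The stage was fitted with a sex term in edgeR 4.0.16 (R 4.3.3; TMM factors, filterByExpr with a minimum count of 10, robust quasi-likelihood test with legacy=TRUE, Benjamini-Hochberg over all genes tested, threshold 0.05). CPM are TMM-scaled and log2 CPM used a prior count of 2. SE is the log2 fold change over the root of F. The sex and prefix comparisons used the same test, and the genotype interaction all 51 libraries of these stages. DESeq2 1.42.0 and limma 3.58.1 served as alternatives, and exact permutation tests were run with scipy 1.17.1 in Python 3.11.15. Intervals and floors (3 counts over a group) cover counting error only. In simulated counts with 200 changed genes, 78.4% of 4-fold and 34.5% of 2-fold changes were recovered in the stage comparison and 1.75% of calls were false. In the data 72.2% of genes were called, so few changed genes do not imitate this comparison. The simulated shares therefore do not give its rate of false calls.

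Named genes are the 12 largest rises and 12 largest falls among genes with a standard symbol that averaged 20 CPM or more, up to 4 called members of each of 35 lists and up to 5 genes of each other comparison by smallest p, and AU022751. Other list members are named for their role or to complete a count, after their values were seen, and a few genes that the rule or the lists hold are not reported here. The members and lists were chosen with earlier results of these data known. The most alike pair of replicates differed by a chi-square of 10.1 per degree of freedom over 146 pairs, and every library was counted as its own sample.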

Additional observations from a re-analysis of the deposited data

Results flagged for a closer look

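Within the 6 female blastocysts the level of X-linked genes relative to autosomal genes was lowest in female 5, at -0.488, far from the next at -0.157, and this is the one female with prefix D707T. In the 8 male blastocysts Fam65c was at 0.0469 CPM in a single library and 0 in the other 7. These were the 2 flags among 22 groups examined for a library far from the others, where chance flags about 1 in 20. That rate does not apply to Fam65c, since any count in 1 library of a group otherwise at 0 is flagged.

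The stage difference differed between females and males for Fam65c, by 7.0 on the log2 scale, and for Tbl1x, by -4.79. For Fam65c that size is not fixed by the data, since male blastocysts were at or near 0 CPM. Between matKO and WT embryos the stage difference differed for Ckmt1 (4.87), Wbp5 (7.26), Gata2 (-4.79), Rdx (-2.68) and Tmem64 (3.62), each by a test of the interaction itself. In matKO 2-cell embryos Ckmt1, Wbp5 and Tmem64 had medians of 0, 0 and 0.182 CPM, so the sizes of their differences are not fixed by the data. Wbp5 was not called (1.27, adjusted p = 0.66 by edgeR) without the 8 WT 2-cell embryos over 100 CPM of granulosa markers.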

How the results depend on the processing

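Among 145 genes named from the stage comparison, 5739 of 5769 repeats under alternatives kept direction and call, 28 lost the call and 2 reversed without the 8 2-cell embryos over 100 CPM of granulosa markers, a setting added after seeing the data (Rlim 0.23, Lyz2 1.73). All of these genes but AU022751 were chosen by the largest change or smallest p in these same data, which favoured their stability in advance. Genes named above for their role, such as Gata2, Ddx6 and Sox17, are not among them, and several of those lost their call. For the counts of genes, leaving out each library in turn gave 4475 to 4902 higher, 4330 to 5024 lower, 2332 to 2548 at least 4-fold higher and 2461 to 3018 at least 4-fold lower. No filter on low counts tested 27493 genes and gave 10393 lower, 4195 at least 4-fold higher and 8013 at least 4-fold lower. Thinning to the lowest total of 1049224 counts tested 8576 genes and gave 1527 and 1329 at least 4-fold higher and lower, and the D707T blastocysts alone gave 4254 at least 4-fold lower. DESeq2 gave 4669 higher and 4806 lower. For sex, the main count of 2 was 11 with DESeq2, 1 with legacy=FALSE, 1 without the filter and 1 to 2 with a library left out. For the prefix, leaving out a library gave 570 to 1097 higher and 716 to 1335 lower. For the genotype interaction, dropping the prefix term gave 541 more positive, DESeq2 649 more negative and no filter 450 more negative. Leaving out the 8 WT 2-cell embryos over 100 CPM of granulosa markers, and no matKO embryo, gave 992 more positive and 753 more negative. The X-linked stage difference in females was -0.206 with genes down to 1 CPM (adjusted p = 0.0303) and 0.165 as a ratio of sums, with a range of -0.178 to -0.065 over libraries left out. In males it was 0.225 with genes down to 1 CPM and 0.197 with D707T alone, and 0.256 to 0.364 with a library left out. The difference of females minus males in blastocysts was 0.267 with genes of at least 20 CPM and 0.431 as a ratio of sums, both called, and -0.024 with D707T alone (1 female), 0.138 to 0.251 with a library left out, and that in 2-cell embryos 0.572 to 0.680. The causes were not tested. Replicate numbers do not pair the samples, with correlations of deviations from -0.211 to 0.066. With sex and number as a replicate block 4294 genes were higher and 4057 lower, and 0 were called for sex (299 at an unadjusted p under 0.05). Depth is lowest in the 2-cell embryos, which limits what can be said of genes near 0 there.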
